A study of Mus musculus with 36 samples.

Results

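The messenger RNAs of 9 Toll-like receptors and of Cd14 were followed in cultured mouse glia after TNF had been combined with drugs that engage the kinase RIPK1. The 10 genes are *Tlr1*, *Tlr2*, *Tlr3*, *Tlr4*, *Tlr6*, *Tlr7*, *Tlr8*, *Tlr9*, *Tlr13* and *Cd14*. They were chosen by name, with earlier results of these data known. They are 10 of the 16666 genes listed in at least 1 of the 2 expression tables. All 10 were listed in microglia, and 7 of them in astrocytes, where *Tlr1*, *Tlr6* and *Tlr9* had no row. Cells came from the pooled brains of C57BL/6 pups aged 2 to 4 days. They were grown as mixed glia for 12 days, microglia were then selected by CD11b and astrocytes from the fraction without microglia, and both rested for 24 to 48 h. Every culture was treated for 4 h. Microglia received DMSO (the vehicle), Nec-1s, TNF/5z-7 (T/5z), TNF/5z-7/Nec-1s (T/5z/N), TNF/Smac/zVAD (T/S/Z) or TNF/Smac/zVAD/Nec-1s (T/S/Z/N). Each treatment had 4 libraries, 24 in all. Astrocytes received the same treatments except those with 5z-7, in 3 libraries each and 12 in all. TNF is the cytokine, 5z-7 an inhibitor of the kinase TAK1, Smac a Smac mimetic that removes inhibitor-of-apoptosis proteins, zVAD a pan-caspase inhibitor, and Nec-1s (N) an inhibitor of RIPK1 kinase activity. The question was which part of the response required that activity. TNF alone was not among these groups, nor were 5z-7, Smac or zVAD without TNF, so the share of TNF cannot be told apart from that of the drugs given with it.

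Toll-like receptors are sensors of microbial and damage-derived molecules, and microglia are the main cells of the brain that carry them. TLR2, with TLR1 or TLR6 as its partner, binds bacterial lipopeptides at the cell surface, and TLR4 binds lipopolysaccharide there with the help of CD14, a protein that hands ligand to the receptor. TLR3, TLR7, TLR8, TLR9 and TLR13 sit in endosomes and sense double-stranded RNA, single-stranded RNA, CpG DNA and bacterial ribosomal RNA. Signals pass through the adaptor MyD88, or TRIF for TLR3 and internalized TLR4, to TAK1, the IKK kinases and NF-κB.

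Values are given as FPKM, fragments per kilobase of exon scaled to library size, turned back from the deposited log2(FPKM + 1) values. Changes are differences of means on that log2 scale. A change was called when it exceeded 1.5-fold with a Benjamini-Hochberg adjusted p under 0.05 in limma, adjusted over all genes of the table. Values after ± are SDs for levels and SEs for changes. The effective depth read from the steps between low values was 18.3 to 25.4 M reads or fragments in the 6 microglial libraries of replicate 4 and 21.3 to 22.5 M in the 12 astrocyte libraries, and the replicates 1 to 3 of microglia gave none. The microglial table had been adjusted so that each gene's mean over the treatments was, in every replicate number, that of replicate 4. This mean thus rests on replicate 4 alone. Differences between replicate means were removed, so the SDs, SEs and overlaps of microglial libraries leave such differences out. In bulk RNA, fewer cells of a type and less RNA per cell cannot be told apart. The 15 microglial markers summed to between 12460 and 15130 FPKM in all 24 microglial libraries. Of these, *Tmem119* and *P2ry12* were low, with means of 9.04 and 4.27 FPKM in DMSO, whereas *C1qa* averaged 2961. Single markers moved with T/5z in either direction. *Cx3cr1* averaged 252 in DMSO and 83.4 with T/5z, whereas *Tmem119* averaged 29.4, *Spi1* 461 (257 in DMSO) and *Ptprc* 153 (90.01 in DMSO). With T/S/Z these 4 markers averaged 179.5, 8.65, 443 and 151 in the same order. With T/5z/N they averaged 129, 15.2, 414 and 129, and with T/S/Z/N 229, 14.8, 432 and 127.

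In microglia under DMSO, *Cd14* was by far the most abundant of the 10, at 982 ± 71.6 FPKM (n = 4). *Tlr2* (116 ± 12.2) and *Tlr13* (108 ± 11.4) came next and their libraries overlapped. *Tlr7* followed at 86.9 ± 5.39 and *Tlr8* at 58.7 ± 7.92. *Tlr4* (25.5 ± 5.09) and *Tlr9* (22.2 ± 1.42) overlapped with each other, *Tlr1* stood at 11.1 ± 2.21, and *Tlr6* (5.72 ± 0.862) and *Tlr3* (5.52 ± 0.443) overlapped at the bottom of the order. FPKM is per exon length, so these levels can be compared between genes. Nec-1s on its own left this order as it was. None of the 10 genes was called in Nec-1s against DMSO, where 0% of the 10524 tested genes were called, and none of the 10 reached an unadjusted p under 0.05, against 892 of all tested genes.

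**Figure D1:**
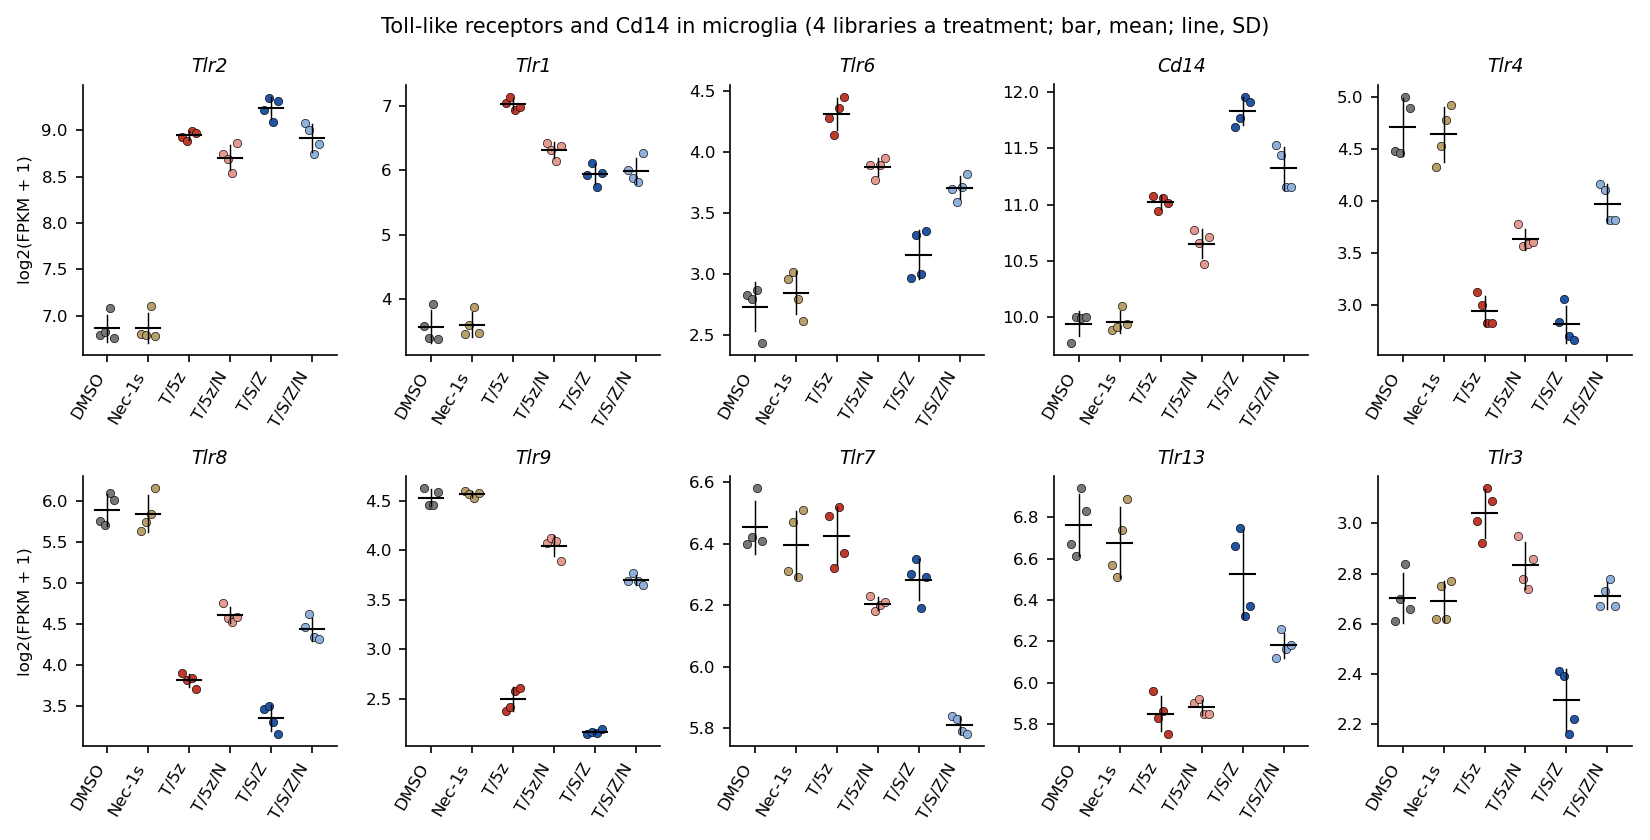
Level of each gene in every microglial library, as log2(FPKM + 1), by treatment, with the vertical scale set for each panel. Points are libraries, horizontal bars means and vertical lines SDs (n = 4). *Tlr2*, *Tlr1* and *Cd14* lie above DMSO in every stimulated library and *Tlr4*, *Tlr8* and *Tlr9* below it, and the 3 that fell lie higher with Nec-1s than without.

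With T/5z, 8 of the 10 genes were called against DMSO, where 24.4% of all tested genes were called. Of these, 4 were higher, *Tlr1*, *Tlr2*, *Tlr6* and *Cd14*, and 4 lower, *Tlr4*, *Tlr8*, *Tlr9* and *Tlr13*. Among all genes, 11.1% were called higher and 13.3% lower. With T/S/Z, 6 of 10 were called against DMSO, where 29.6% of all genes were called. *Tlr1*, *Tlr2* and *Cd14* were higher and *Tlr4*, *Tlr8* and *Tlr9* lower, beside 12.2% and 17.5% of all genes. The median change over the 10 genes was 0.15 under T/5z and −0.21 under T/S/Z, beside −0.06 and −0.08 over all tested genes. *Tlr1*, *Tlr2*, *Tlr4* and *Tlr6* together gave 158 ± 18.3 FPKM in DMSO, 648 ± 7.68 after T/5z, and T/S/Z libraries gave 682 ± 57.1. The 5 endosomal receptors together went from 281 ± 23.6 to 167 ± 9.02 and 186 ± 17.8. The stimulated sums did not overlap with DMSO, being higher for the surface receptors and lower for the endosomal ones. They were not tested, and *Tlr2* made up most of the first.

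*Tlr2* encodes the receptor shared by both lipopeptide-sensing pairs. Its libraries held 109, 113, 134 and 107 FPKM in DMSO, 488, 474, 507 and 502 after T/5z, and 594, 652, 543 and 639 after T/S/Z. All stimulated libraries lay above all DMSO libraries. The rise was 2.08 ± 0.06 with T/5z (adjusted p = 6.7e-07) and 2.38 ± 0.09 with T/S/Z (adjusted p = 5.33e-07), a 4.24-fold and a 5.21-fold difference. With Nec-1s the change was −0.24 ± 0.06 after T/5z (adjusted p = 0.0108) and −0.33 ± 0.07 after T/S/Z (adjusted p = 0.00486), both under the fold threshold, and *Tlr2* was still called above DMSO in both.

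*Tlr1*, the partner of TLR2 for triacylated lipopeptides, had the largest rise of the 10 with T/5z. Libraries held 11.1, 9.61, 14.3 and 9.49 FPKM in DMSO and 131, 140.2, 122 and 125 after T/5z, a change of 3.45 ± 0.11 (10.9-fold, adjusted p = 9.5e-07). After T/S/Z they held 59.9, 68.7, 52.7 and 61.4, a change of 2.36 ± 0.13 (adjusted p = 3.54e-06). The 3 groups did not overlap, with T/5z the highest. T/S/Z differed from T/5z by −1.09 ± 0.05 (adjusted p = 1.45e-05). With Nec-1s the libraries held 84.7, 78.9, 70.2 and 81.9 after T/5z, all below T/5z alone (−0.71 ± 0.05, adjusted p = 1.84e-05). They held 63.6, 57.8, 55.4 and 76.4 after T/S/Z, a range that overlapped T/S/Z alone (0.06 ± 0.08, adjusted p = 0.577, and −0.02 with each library centred on its median). The effect of Nec-1s thus differed between the stimuli, by −0.76 ± 0.10 in a test of the interaction (adjusted p = 0.000139).

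*Tlr6* encodes the other TLR2 partner, for diacylated lipopeptides, and lies beside *Tlr1* on chromosome 5. Its libraries held 6.11, 5.99, 6.34 and 4.45 FPKM in DMSO and 18.5, 16.7, 19.5 and 20.8 after T/5z, a rise of 1.57 ± 0.11 (adjusted p = 2.29e-05). After T/S/Z they held 6.83, 8.95, 6.98 and 9.18, above DMSO by 0.42 ± 0.13, which was not called (adjusted p = 0.0209). T/5z libraries stood apart from all others, and T/S/Z lay only just above DMSO. With Nec-1s the stimuli lay closer together. *Tlr6* held 13.8, 12.6, 13.9 and 14.5 after T/5z (−0.43 ± 0.05, adjusted p = 0.000161, not called for its size). It held 12.0, 11.0, 12.1 and 13.1 after T/S/Z (0.55 ± 0.08, adjusted p = 0.00097, not called for its size). The interaction was the largest among the 10 genes, at −0.98 ± 0.11 (adjusted p = 2.19e-05).

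The levels of TLR2 partners relative to *Tlr2* differed between the stimuli. The ratio of *Tlr2* to *Tlr1* FPKM was 10.6 ± 1.11 in DMSO, 3.82 ± 0.347 after T/5z, while T/S/Z left 10.0 ± 0.417. The ratio of *Tlr2* to *Tlr6* was 20.5 ± 2.79, 26.2 ± 1.78 and 76.8 ± 7.55 in the same order. After T/5z the ratio to *Tlr1* lay below every DMSO and T/S/Z library, and after T/S/Z the ratio to *Tlr6* lay above every DMSO and T/5z library. These ratios are descriptions of RNA and were not tested.

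The upstream sequences of the 3 genes are shown because they belong to 1 receptor group and all 3 were called higher with T/5z. They come from RefSeq (GRCm38.p6), are taken from the 250 bases before a RefSeq start, and leave out bases that lie within an annotated gene. Capitals mark matches, on either strand, to an NF-κB-like motif (GGG and TTCC set 3 bases apart), TGANTCA (AP-1), GAGGAA (the core of the box bound by PU.1, a myeloid factor) and an interferon response element (GAAA and GAAA set 2 bases apart). The *Tlr2* run lies at chr3:83841768-83841858, minus strand, *Tlr1* at chr5:64933564-64933808, minus strand, and *Tlr6* at chr5:64960098-64960298, minus strand.
Tlr2: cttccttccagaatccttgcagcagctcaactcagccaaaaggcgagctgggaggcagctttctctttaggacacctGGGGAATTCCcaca
Tlr1: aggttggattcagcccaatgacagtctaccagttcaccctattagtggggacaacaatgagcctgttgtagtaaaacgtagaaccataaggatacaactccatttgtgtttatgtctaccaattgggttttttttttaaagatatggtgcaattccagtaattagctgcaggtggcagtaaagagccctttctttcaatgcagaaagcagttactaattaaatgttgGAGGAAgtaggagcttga
Tlr6: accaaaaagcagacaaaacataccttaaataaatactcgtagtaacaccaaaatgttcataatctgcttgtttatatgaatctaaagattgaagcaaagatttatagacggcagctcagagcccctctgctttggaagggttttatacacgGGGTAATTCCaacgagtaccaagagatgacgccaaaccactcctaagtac
An NF-κB-like match lay 173 to 164 bases before the RefSeq start of *Tlr2* and 99 to 90 bases before that of *Tlr6*, and the *Tlr1* run held a GAGGAA match only, 23 to 18 bases before its start. A further RefSeq start of *Tlr6* inside the gene, whose window is not printed, had 2 overlapping interferon-element matches, 116 to 107 and 110 to 101 bases before it. Of 32851 RefSeq promoter windows of one length, 5.56% held the NF-κB-like letters, 7.81% the AP-1, 28.3% the GAGGAA and 3.44% the interferon letters. These windows reach past the start and are longer than the printed runs, so the shares are not those of such runs. A match describes letters and not a bound site. *Tlr4*, *Tlr7* and *Cd14* had no window in the table.

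*Cd14* and *Tlr4* encode 2 parts of the lipopolysaccharide receptor and went opposite ways. *Cd14* libraries held 875, 1020, 1012 and 1021 FPKM in DMSO, 2163, 1965, 2139 and 2066 after T/5z, and 3312, 3499, 3973 and 3838 after T/S/Z. The 3 groups did not overlap. The rise was 1.09 ± 0.07 with T/5z (adjusted p = 1.29e-05) and 1.89 ± 0.04 with T/S/Z (adjusted p = 8.85e-08), and T/S/Z exceeded T/5z by 0.81 ± 0.07 (adjusted p = 0.000156). With Nec-1s *Cd14* was lower in every replicate number by amounts under the fold threshold, at 1416 to 1748 after T/5z (−0.37 ± 0.07, adjusted p = 0.00277) and 2282 to 2956 after T/S/Z (−0.51 ± 0.13, adjusted p = 0.0126). *Cd14* was the 1 gene of the 10 called between T/S/Z/N and T/5z/N (0.67 ± 0.07, adjusted p = 0.000206), where 3.38% of all genes were called, 1.8% higher and 1.59% lower. Under quantile normalization the changes between the stimuli fell under the fold threshold, to 0.58 without Nec-1s and 0.55 with it.

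*Tlr4* fell from 21.4, 21.1, 31.1 and 28.7 FPKM in DMSO to 7.70, 6.98, 6.07 and 6.08 after T/5z (−1.77 ± 0.14, adjusted p = 5.06e-05), and to 6.10, 7.28, 5.52 and 5.30 after T/S/Z (−1.90 ± 0.15, adjusted p = 1.72e-05). Every stimulated library lay below every DMSO library, and the stimuli overlapped with each other. With Nec-1s it stood at 12.7, 10.8, 10.9 and 11.1 after T/5z (0.69 ± 0.06 above T/5z alone, adjusted p = 4.06e-05, and under the fold threshold at 0.49 with 5 added before the log). After T/S/Z it stood at 16.9, 16.1, 13.1 and 13.1 (1.16 ± 0.06, adjusted p = 8.37e-06). These groups lay between the stimulus and DMSO without overlap, and were called below DMSO by −1.08 ± 0.11 (adjusted p = 0.000139) and −0.74 ± 0.15 (adjusted p = 0.00579). The *Cd14* to *Tlr4* ratio was 39.4 ± 6.95 in DMSO, 314 ± 37.9 after T/5z and, with T/S/Z, 617 ± 124. With Nec-1s it was 142 ± 10.3 and 174 ± 1.08.

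Nec-1s called 4 of the 10 genes after T/5z (*Tlr4* not with 5 added before the log), beside 7.16% of all genes, and 3 after T/S/Z, beside 12.1%. *Tlr4*, *Tlr8* and *Tlr9* were higher with Nec-1s in both comparisons, beside 2.64% and 5.35% of all genes called higher. *Tlr1* was lower after T/5z, beside 4.52%, and none was called lower after T/S/Z, beside 6.72%. The comparisons of a stimulus with DMSO and with Nec-1s share the stimulus libraries, so their changes are not independent. Against DMSO, 7 of 10 genes were called with T/5z/N, beside 12.8% of all genes, 4 of them higher (6.16%) and 3 lower (6.69%). With T/S/Z/N 8 of 10 were called, beside 14.1%, 4 higher (6.2%) and 4 lower (7.87%).

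**Figure D2:**
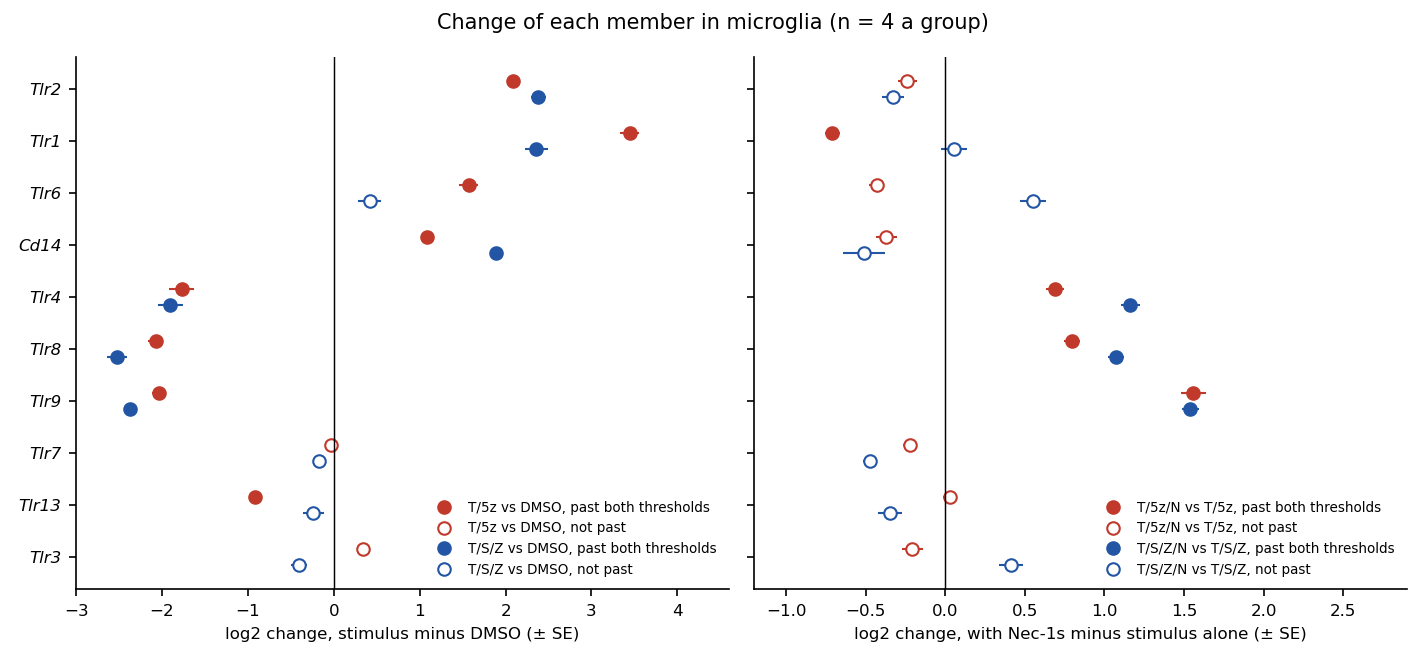
Change of each gene in microglia on the log2(FPKM + 1) scale, with SEs as horizontal lines. The left panel gives each stimulus minus DMSO and the right panel each stimulus with Nec-1s minus the stimulus alone, with filled points for called changes. In the right panel *Tlr9* lies farthest to the right for both stimuli, at 1.56 and 1.54, and *Tlr6* lies at −0.43 (T/5z) and 0.55 (T/S/Z) there, neither of them called.

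*Tlr9*, the endosomal receptor for CpG DNA, was the gene of the 10 with the largest rise under Nec-1s. Its libraries held 23.76, 20.99, 20.97 and 23.02 FPKM in DMSO and 4.16, 4.32, 4.98 and 5.11 after T/5z (−2.04 ± 0.07, adjusted p = 1.35e-06). They held 3.41, 3.48, 3.43 and 3.56 after T/S/Z (−2.37 ± 0.06, adjusted p = 1.34e-07), the lowest and tightest group. With Nec-1s they held 15.9, 16.5, 16.1 and 13.8 after T/5z (1.56 ± 0.08, adjusted p = 4.28e-06) and 11.9, 12.6, 11.9 and 11.5 after T/S/Z (1.54 ± 0.05, adjusted p = 1.77e-06). Apart from Nec-1s alone, which overlapped DMSO, no group overlapped another. T/5z/N remained 0.48 below DMSO, which was not called (−0.48 ± 0.07, adjusted p = 0.001), and T/S/Z/N was called below it (−0.83 ± 0.07, adjusted p = 4.34e-05). The effect of Nec-1s differed between the stimuli by 0.02 ± 0.09 (adjusted p = 0.914), and this sign turned with 0.1 added before the log, at −0.03.

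*Tlr8*, whose human counterpart senses single-stranded RNA, fell about as far as *Tlr9* with both stimuli. *Tlr8* had the larger fall on the log2 scale used, and *Tlr9* on the FPKM means, which were 4.78-fold and 6.39-fold lower than in DMSO against 4.48-fold and 6.30-fold for *Tlr8*. From 52.8, 51.1, 67.1 and 63.6 FPKM in DMSO it went to 13.9, 13.1, 13.3 and 12.1 after T/5z (−2.07 ± 0.09, adjusted p = 3.06e-06) and to 10.07, 10.3, 8.95 and 7.96 after T/S/Z (−2.53 ± 0.12, adjusted p = 1.31e-06). With Nec-1s it reached 22.0 to 26.0 after T/5z (0.79 ± 0.05, adjusted p = 1.18e-05) and 19.0 to 23.6 after T/S/Z (1.08 ± 0.05, adjusted p = 5.21e-06), above the stimulus alone and below DMSO in every library. *Tlr8* with Nec-1s was called below DMSO for both stimuli, by −1.28 ± 0.09 and −1.45 ± 0.11 (adjusted p = 1.69e-05 and 3.94e-05).

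The upstream runs of *Tlr9* (chr9:106222348-106222597, plus strand) and *Tlr8* (chrX:167264330-167264579, minus strand) are shown, marked as above, because these 2 genes fell with both stimuli and rose with Nec-1s in both.
Tlr9: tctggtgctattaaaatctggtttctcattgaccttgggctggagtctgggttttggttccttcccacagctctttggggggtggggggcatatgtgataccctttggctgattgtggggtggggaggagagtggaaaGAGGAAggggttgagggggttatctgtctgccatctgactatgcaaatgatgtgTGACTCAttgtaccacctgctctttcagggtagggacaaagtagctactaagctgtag
Tlr8: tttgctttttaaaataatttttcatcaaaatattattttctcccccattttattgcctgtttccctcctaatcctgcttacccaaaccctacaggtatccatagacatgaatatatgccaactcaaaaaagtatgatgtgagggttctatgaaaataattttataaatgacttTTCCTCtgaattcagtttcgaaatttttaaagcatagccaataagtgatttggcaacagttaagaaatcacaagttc
Both runs held a GAGGAA match, 112 to 107 bases before the start of *Tlr9* and, on the other strand, 77 to 72 bases before that of *Tlr8*. *Tlr9* also held an AP-1 match 58 to 52 bases before its start. Neither run held the NF-κB-like letters. These did occur 211 to 202 bases before the start of *Tlr3*, in a stretch within the annotated gene that is not printed. GAGGAA matches were not limited to this pair. *Tlr1* held one, as shown above, and *Tlr13* held one 83 to 78 bases before its start, in a run not printed. *Tlr13* was not called with Nec-1s after either stimulus.

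*Tlr7*, the neighbour of *Tlr8* on the X chromosome and a sensor of single-stranded RNA, changed far less. Its libraries held 83.7 to 94.95 FPKM in DMSO, 79.0 to 90.5 after T/5z (−0.03 ± 0.05, adjusted p = 0.613, and 0.04 with each library centred on its median) and 72.2 to 80.5 after T/S/Z (−0.17 ± 0.06, adjusted p = 0.0406, not called for its size). With Nec-1s it was lower than with the stimulus alone, at 71.3 to 74.0 after T/5z (−0.22 ± 0.04) and 54.0 to 56.2 after T/S/Z (−0.47 ± 0.04), both under the fold threshold. T/S/Z/N was the 1 group called below DMSO (−0.64 ± 0.06, adjusted p = 9.34e-05). The ratio of *Tlr7* to *Tlr9* was 3.94 ± 0.45 in DMSO, 18.5 ± 2.24 after T/5z, 22.2 ± 0.953 after T/S/Z, and 4.68 ± 0.417 and 4.596 ± 0.122 with Nec-1s.

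*Tlr13*, a receptor for bacterial ribosomal RNA, separated the 2 stimuli. It held 101, 96.6, 122 and 112 FPKM in DMSO and 61.3, 55.8, 57.2 and 53.0 after T/5z, a fall of 0.91 on the log2 scale (−0.91 ± 0.08, adjusted p = 5.27e-05). After T/S/Z it held 99.9, 107, 78.8 and 82.0, which overlapped DMSO (−0.24 ± 0.12, adjusted p = 0.111) and lay above T/5z by 0.67 ± 0.08 (adjusted p = 0.000536, and under the fold threshold at 0.55 with quantile normalization). With Nec-1s it held 56.7 to 59.8 after T/5z, within the range of T/5z alone (0.03 ± 0.04, adjusted p = 0.579, and −0.02 with each library centred on its median). After T/S/Z it gave 68.4 to 75.4 (−0.35 ± 0.07, adjusted p = 0.00489, not called for its size).

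*Tlr3*, the receptor for double-stranded RNA that signals through TRIF, was among the lowest in microglia and was not called against DMSO. It held 5.11, 5.48, 6.14 and 5.34 FPKM in DMSO, 7.06, 6.59, 7.80 and 7.49 after T/5z (0.34 ± 0.06, adjusted p = 0.00246), and 4.33, 4.25, 3.48 and 3.67 after T/S/Z (−0.40 ± 0.09, adjusted p = 0.00466). The groups did not overlap, and T/S/Z was called below T/5z (−0.74 ± 0.09, adjusted p = 0.000811, and under the fold threshold at −0.45 with 5 added before the log). With Nec-1s the stimuli came to 5.68 to 6.73 and 5.36 to 5.85, and the interaction was −0.62 ± 0.10 (adjusted p = 0.000623). The interaction fell under the fold threshold without replicate 3 (−0.49), with 5 added before the log (−0.38) and with quantile normalization (−0.54). An antisense gene, *Gm45542*, overlaps the 5′ end of *Tlr3*, the annotation marks *Tlr3* as confounded, and no strand-specific protocol is stated for microglia, so its reads and those of *Gm45542* cannot be told apart there.

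Between the stimuli, 5 of the 10 genes were called in T/S/Z against T/5z, beside 9.83% of all genes. *Cd14* and *Tlr13* were higher with T/S/Z (5.42% of all genes), and *Tlr1*, *Tlr6* and *Tlr3* were lower (4.42%). With quantile normalization the count was 3, without *Cd14* and *Tlr13*, and with 5 added before the log *Tlr3* was lost. In the test of the interaction, 3 of 10 were called, *Tlr1*, *Tlr6* and *Tlr3* (the last not in the refits named above), beside 6.47% of all genes, 3.77% higher and 2.7% lower. All 3 were lower in T/5z/N relative to T/5z than in T/S/Z/N relative to T/S/Z.

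With a stricter threshold of 2-fold, 32 of the 51 calls made over both cell types and the interaction were kept. In microglia, 7 genes were called with T/5z (*Tlr13* being lost) beside 10.2% of all genes, and the same 6 with T/S/Z beside 11.4%. With Nec-1s, *Tlr9* alone was called after T/5z, beside 1.73%, and *Tlr4*, *Tlr8* and *Tlr9* after T/S/Z, beside 3.18%. Against DMSO, 5 were called with T/5z/N, beside 5.44%, without *Cd14* and *Tlr13*, and 4 with T/S/Z/N, beside 5.66%, without *Tlr4*, *Tlr6*, *Tlr7* and *Tlr9*. Between the stimuli *Tlr1* and *Tlr6* were kept, beside 3.79%, and none was called between T/S/Z/N and T/5z/N (0.684%) or in the interaction (2.16%).

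The genes with the profile most like each of 3 receptors over the 24 microglial libraries are given as a description, by Pearson r of the deposited values. For *Tlr2*, whose rise with T/S/Z was close to that of *Tlr1* (the larger on the log2 scale used, but 5.24-fold against 5.47-fold on the FPKM means), these included *Nfkbia* (r = 0.995), which encodes the NF-κB inhibitor IκBα, *Traf1* (0.994), *Tank* (0.993) and *Nfkb2* (0.992), the last encoding an NF-κB subunit. For *Tlr1* they were *Arl5c* (0.992), *Acp2* (0.991), *Nrp2* (0.991), *Ptprj* (0.99) and *Igsf6* (0.99). For *Tlr8* they were *Ing4* (0.992), *Ulk2* (0.991), *Heatr5a* (0.988), *Txndc16* (0.988) and *Klhl24* (0.987). The libraries of 1 treatment share that treatment, so these values describe a pattern over 6 treatments and not 24 independent points.

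Other genes of the pathway were taken from a list of 55 in 9 role classes, also made with earlier results of these data known. Of these, 53 were listed and 48 tested in microglia. With T/5z, 11 of 48 were called higher and 5 lower, beside 11.1% and 13.3% of all genes, and with T/S/Z 11 higher and 6 lower, beside 12.2% and 17.5%. The largest change with each stimulus was that of *Tnfaip3*, in the class of negative regulators. *Tnfaip3*, whose product A20 removes ubiquitin chains from the pathway, went from 6.39 FPKM to 78.3 with T/5z (3.41 ± 0.11, adjusted p = 9.44e-07) and to 172 with T/S/Z (4.55 ± 0.06, adjusted p = 9.29e-09). *Tnip1*, an A20 partner, rose by 2.26 ± 0.08 and 2.63 ± 0.05. *Irak3*, which encodes an inhibitory IRAK, rose by 1.27 ± 0.08 and 1.09 ± 0.10, and *Socs1* differed by 1.25 ± 0.11 and 0.91 ± 0.09. *Socs1* averaged 0.426 FPKM in DMSO and entered the test only through the stimulated groups where it was high, so its calls, counted here, are descriptions. *Tollip* was called with T/S/Z only, at 1.10 ± 0.06. In this class 4 and 5 of 9 tested genes were called higher, beside 11.1% and 12.2% of all genes, and none lower.

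Among adaptors, *Myd88* rose by 1.15 ± 0.04 under T/5z and by 0.75 ± 0.06 under T/S/Z. *Ticam2*, whose product TRAM links TLR4 to TRIF, fell by 0.98 and 1.62 on the log2 scale, the direction of *Tlr4*, and *Ticam1*, which encodes TRIF, rose by 0.67 ± 0.07 with T/S/Z. Among the receptor-proximal kinases and ubiquitin ligases, *Irak2* rose by 1.41 ± 0.05 and 1.40 ± 0.05 while *Peli2* fell by 1.65 and 1.51. *Irak4*, which encodes the kinase that starts the cascade, was called lower with T/S/Z (−0.64 ± 0.08). Of the 9 TAK1, IKK and TBK1 genes, *Ikbke* rose by 2.39 ± 0.07 and 1.89 ± 0.05 and *Tab1* fell by 0.68 and 1.06. *Cd180*, a Toll-like accessory receptor, was called lower with T/5z (−1.22 ± 0.05).

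For the endosomal receptors, *Cnpy3*, a chaperone that folds several Toll-like receptors, was lower with both stimuli (−0.76 ± 0.06 and −0.75 ± 0.05), and it was the 1 gene called of 6 tested for folding and trafficking with T/5z. With T/S/Z *Cnpy4* was called lower as well (−0.69 ± 0.07). None of the 5 endolysosomal proteases that process these receptors, and none of the 3 interferon regulatory factors, was called with either stimulus. These counts stand beside the 24.4% (T/5z) and 29.6% (T/S/Z) of all genes that were called, and in classes this small they set none apart. With Nec-1s, *Tnfaip3* was lower by −1.29 ± 0.09 in the T/5z comparison and −2.05 ± 0.05 in the T/S/Z one, *Tnip1* by −1.03 ± 0.06 and −0.66 ± 0.04, and *Irak2* by −0.91 ± 0.05 and −0.79 ± 0.04, whereas *Ticam2* was higher by 0.62 ± 0.14 and 0.87 ± 0.13. *Cd180* was lower after T/S/Z (−1.27 ± 0.06). In all, Nec-1s called 1 gene higher and 4 lower after T/5z, and 2 higher and 6 lower after T/S/Z. The shares of all genes were 2.64% and 4.52% after T/5z, and 5.35% and 6.72% after T/S/Z. *Myd88*, *Ticam2*, *Irak2*, *Irak3*, *Irak4*, *Peli2*, *Ikbke*, *Cd180*, *Cnpy3* and *Tnip1* carry the annotation's confounded mark, and their values may include reads of a neighbour.

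Markers of other cells were low in the microglial libraries, and some moved with the stimuli. The 9 astrocyte markers summed to 7.17 to 9.14 FPKM in DMSO, 12.1 to 22.2 with T/5z, 13.7 to 19.9 with T/S/Z, and 4.88 to 8.95 with either stimulus and Nec-1s. No group mean of the 9 was at 0, and *Gfap* averaged 2.29 in DMSO, 4.80 with T/5z, and 5.46 under T/S/Z. *Mrc1*, the 1 listed of 3 border macrophage markers, held 39.5 to 44.1 in DMSO, 24.2 to 29.1 with T/5z, 26.9 to 28.8 with T/S/Z, and 35.9 to 38.6 and 32.8 to 39.7 with Nec-1s. Of the dendritic cell list, *Zbtb46* averaged 0.406 in DMSO, 1.74 under T/5z and 1.37 with T/S/Z, and *Siglech*, which is also known as a marker of homeostatic microglia, 0.0797, 0.107 and 0.0686. *Flt3* was not listed, and the list as a whole did not move together. Fibroblast and mural markers summed to 3.54 to 4.46 in DMSO, 6.52 to 11.1 with T/5z, 3.81 to 4.71 with T/5z/N, 2.51 to 4.49 with T/S/Z and 1.76 to 2.76 with T/S/Z/N. Endothelial markers summed to 5.82 to 6.81 in DMSO, 3.45 to 4.83 with T/5z, 2.70 to 3.34 with T/S/Z, and 2.97 to 3.61 with Nec-1s added to either. *Pecam1* carried most of this, averaging 5.05 in DMSO and 2.13 with T/5z, where *Cdh5* (0.244 and 0.697) and *Flt1* (1.13 and 1.35) were not lower. Oligodendrocyte lineage markers summed to 24.3 to 26.1 in DMSO, 23.1 to 25.4 with T/5z, 24.9 to 27.8 with T/5z/N, 18.9 to 23.0 with T/S/Z and 26.4 to 27.7 with T/S/Z/N. Most of this was *Mbp*, at 23.1 in DMSO, 19.3 under T/5z and 16.3 with T/S/Z, whereas *Olig1* averaged 1.03, 2.44 and 2.59. The sums over all treatments ran from 0.0873 to 17.8 for monocyte and neutrophil markers, with ranges that overlapped between all treatments, and from 0 to 0.355 for neuron markers, and no lymphocyte marker was listed. Their part in the changes of the 10 genes was not tested.

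In astrocytes *Tlr2* had the largest change with T/S/Z among the 5 of the 10 genes that were tested. Of the 7 genes listed, 5 passed the filter on low values. *Tlr7* and *Tlr8* did not, and *Tlr13* passed only through its 3 DMSO libraries. T/S/Z against DMSO called 3 of 5, beside 15.4% of 13842 tested genes, with *Tlr2* and *Cd14* higher (6.39% of all genes) and *Tlr13* lower (8.99%). Since *Tlr13* entered through the group where it was highest, its call is a description. The median change of all tested genes in this comparison was −0.11.

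*Tlr2* held 2.33, 2.57 and 2.32 FPKM in DMSO and 176, 178 and 189 after T/S/Z, a rise of 5.74 ± 0.08 (53.5-fold, adjusted p = 5.34e-08). With Nec-1s it held 145, 143 and 143, below T/S/Z alone in all 3 libraries. This difference of −0.33 ± 0.08 was neither past the fold threshold nor past the adjusted p (0.0522), and T/S/Z/N was called above DMSO by 5.41 ± 0.07 (adjusted p = 9.88e-07). *Cd14* went from 4.05, 3.75 and 3.28 to 25.6, 23.9 and 21.7 (2.40 ± 0.08, adjusted p = 2.53e-06). With Nec-1s it held 12.1, 12.6 and 10.4, apart from both other groups, a change of −0.96 ± 0.09 from T/S/Z (adjusted p = 0.00156). It was the 1 gene of 5 called for Nec-1s, beside 3.1% of all genes, 1.51% higher and 1.59% lower. T/S/Z/N against DMSO called 2 of 5, *Tlr2* and *Cd14*, beside 9.08% of all genes, 4.36% higher and 4.72% lower. With a threshold of 2-fold, *Tlr2* and *Cd14* were called with T/S/Z, beside 5.53% of all genes, and with T/S/Z/N, beside 2.79%, and none for Nec-1s after T/S/Z, beside 0.773%, or for Nec-1s alone, beside 0.00722%.

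*Tlr4* was low in astrocytes, at 2.69, 2.78 and 2.96 FPKM in DMSO, 2.03, 2.22 and 2.08 after T/S/Z (−0.29 ± 0.10, adjusted p = 0.0554) and 2.95, 2.81 and 3.68 with Nec-1s (0.41 ± 0.11 above T/S/Z, adjusted p = 0.0633). The T/S/Z libraries lay below the other 2 groups without overlap, but neither difference was called. *Tlr3* was the highest of the 7 in DMSO, at 11.7, 13.1 and 13.6, and held 18.5, 16.1 and 21.1 after T/S/Z (0.50 ± 0.10, adjusted p = 0.00656, not called for its size) and 19.2, 17.0 and 14.9 with Nec-1s (adjusted p = 0.558 against T/S/Z). Without replicate 2 it passed, at 0.61. *Tlr13* held 1.11, 1.305 and 1.31 in DMSO and 0.447, 0.278 and 0.490 after T/S/Z (−0.67 ± 0.12, adjusted p = 0.00407). This fell under the fold threshold with 5 added before the log (−0.21) and with quantile normalization (−0.54). *Tlr7* lay between 0.697 and 1.02 in all 12 libraries and *Tlr8* between 0.387 and 1.03. Nec-1s alone called none of the 5, beside 0.0144% of all genes, and 3 of them (*Tlr2*, *Tlr3* and *Tlr13*) had an unadjusted p under 0.05 with means below DMSO, against 790 of all tested genes (5.71%) in either direction.

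**Figure D3:**
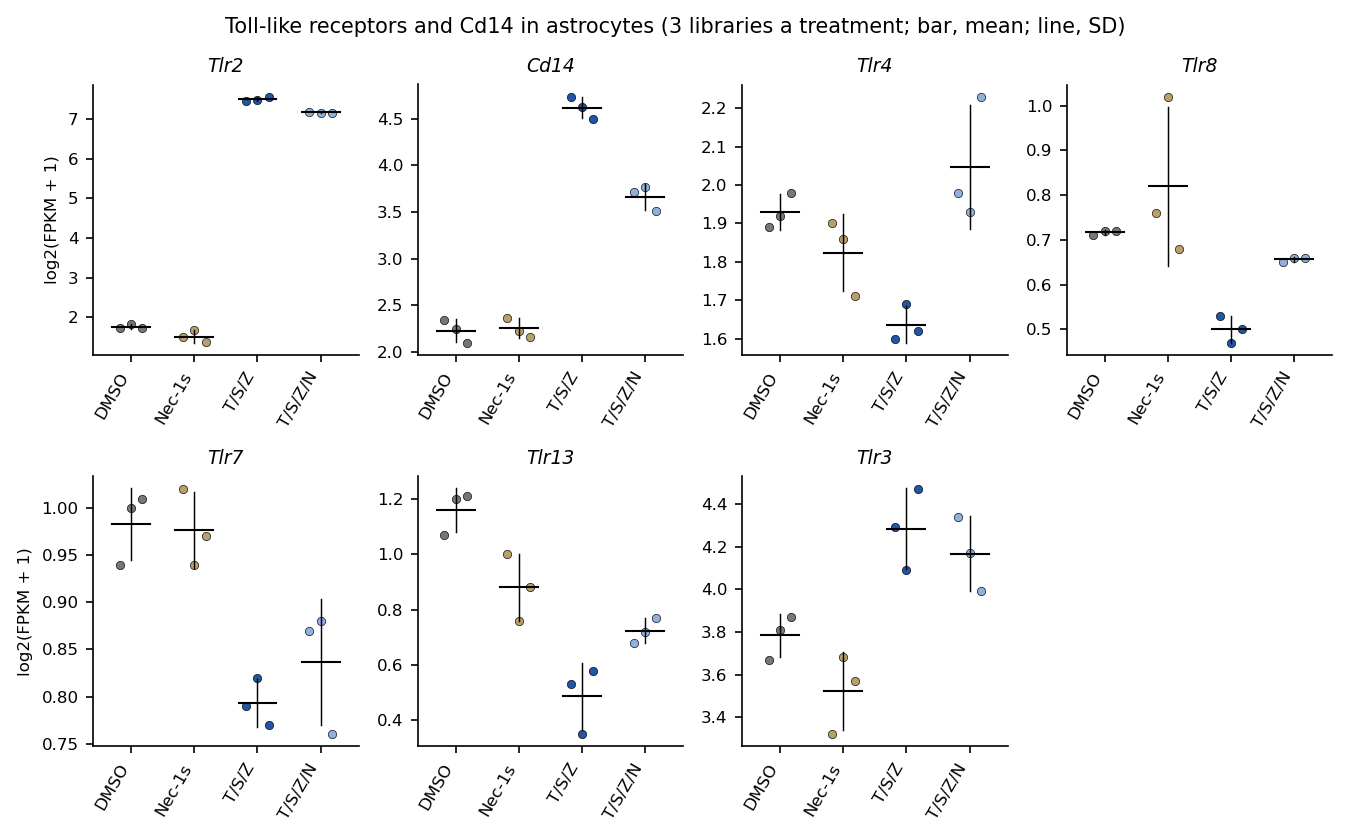
Level of each listed gene in every astrocyte library, as log2(FPKM + 1), by treatment, with the vertical scale set for each panel. Points are libraries, horizontal bars means and vertical lines SDs (n = 3). *Tlr2* lies between 1.36 and 1.83 in the DMSO and Nec-1s libraries and between 7.17 and 7.57 in those that received T/S/Z, and *Cd14* with Nec-1s lies between DMSO and T/S/Z.

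The astrocyte cultures also held RNA of other cells. The 15 microglial markers, all listed and with no group mean at 0, summed to 127 to 136 FPKM in DMSO, 84.2 to 89.9 after T/S/Z and 111 to 121 with Nec-1s, and all but *Cd68* had a lower mean after T/S/Z than in DMSO. The 5 fibroblast and mural markers summed to 284 to 313, 68.3 to 76.7 and 259 to 267. *Cdh5* and *Flt1*, the 2 listed of 4 endothelial markers, summed to 13.6 to 14.7, 5.79 to 6.42 and 11.5 to 14.1, but differed, *Cdh5* averaging 12.3 in DMSO and 2.98 after T/S/Z and *Flt1* 1.69 and 3.07. The summed oligodendrocyte lineage markers held 97.5 to 115, 56.8 to 82.4 and 65.5 to 69.6. *Zbtb46*, the 1 listed dendritic cell marker, averaged 2.21, 5.72 and 4.77, and markers of neurons, border macrophages, monocytes and neutrophils, and lymphocytes were not listed. The 9 astrocyte markers summed to 2924 to 3404 in all 12 libraries. The summed microglial, and fibroblast and mural, levels and that of *Cdh5* were lower after T/S/Z, and that of *Flt1* higher, where *Tlr2* and *Cd14* were higher and *Tlr13* lower. Their part in these results was not tested.

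Of the 55 pathway genes, 48 were listed and 47 tested in astrocytes. T/S/Z called 10 of 47 higher and 3 lower, beside 6.39% and 8.99% of all genes. *Tnfaip3* went from 1.67 to 41.9 FPKM (4.01 ± 0.09, adjusted p = 3.5e-07), *Tnip1* rose by 3.10 ± 0.10, and *Myd88* by 1.82 ± 0.09. *Ikbke* rose by 1.29 ± 0.10, and *Irak2* and *Traf3* by 0.68 and 0.61. *Socs1* (1.20 ± 0.21) and *Irak3* (0.70 ± 0.11) averaged 0.557 and 0.953 FPKM in DMSO and entered the test through the stimulated groups, so their calls are descriptions. The interferon regulatory factor genes *Irf5* and *Irf7* rose by 1.89 ± 0.12 and 1.57 ± 0.13. The 3 lower were the protease genes *Ctsk* (−1.91 ± 0.09) and *Ctss* (−0.78 ± 0.08), and *Peli2* (−0.87 ± 0.10). With Nec-1s *Ctsk* and *Ctss* were higher than after T/S/Z alone (1.72 ± 0.10 and 0.63 ± 0.09), and *Socs1* and *Irf7* lower (−0.78 ± 0.16 and −0.70 ± 0.10). Nec-1s on its own called 0 of these genes in either cell type, beside 0.0144% of all genes in astrocytes and 0% in microglia by limma. *Irf5*, *Irf7*, *Traf3* and *Ctss* carry the confounded mark as well.

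The tables came from different providers and were scaled separately, so levels across cell types are set side by side with no test. *Tlr2* in astrocytes was 2.08% of its microglial mean in DMSO and 29.8% after T/S/Z, and 29.6% with Nec-1s. Of the 15 microglial markers, the 12 with a log2 value of at least 7 in DMSO microglia lay between 0.177% and 3.43% after T/S/Z, and the 15 reached up to 18.7%. *Tlr2* was above both there. In DMSO the 12 lay between 0.349% and 5.07%, a range that held *Tlr2*, and the 15 reached up to 42.95%. *Tlr8* stood at 1.10% in DMSO and 4.44% after T/S/Z, but its level was lower after T/S/Z in both cell types, from 58.7 to 9.32 FPKM in microglia and from 0.645 to 0.414 in astrocytes (not tested). *Cd14* (0.376% in DMSO and 0.648% after T/S/Z), *Tlr7* (1.12% and 0.952%) and *Tlr13* (1.15% and 0.441%) lay within the range of the 12. *Tlr4* was at 11.0% in DMSO and 34.9% after T/S/Z, the latter with a fallen microglial level. *Tlr3* was the 1 gene with the higher value in astrocytes, at 232% in DMSO and 472% after T/S/Z. In astrocytes *Tlr2* and *Tlr4* stood at 2.41 and 2.81 FPKM in DMSO, and the *Tlr2* to *Tlr4* ratio went from 0.857 ± 0.0694 to 86.0 ± 5.51, where microglia went from 4.63 ± 0.737 to 102 ± 13.3.

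**Figure D4:**
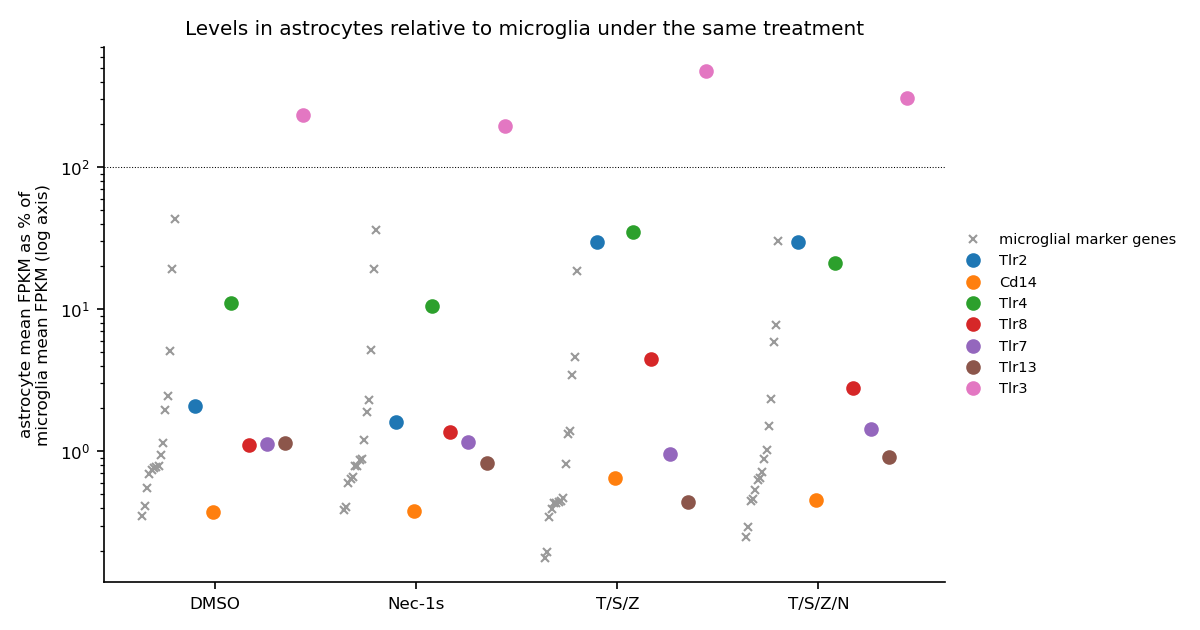
Astrocyte mean FPKM as a percentage of microglia mean FPKM under the same treatment, on a log axis, for the 7 genes listed in both tables (circles) and the 15 microglial markers (crosses). The dotted line marks equal values. *Tlr2* moves from 2.08% in DMSO to 29.8% after T/S/Z while the abundant markers stay at or below 3.43% there, and *Tlr3* lies above the line in every treatment.

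The genes lie at the following places of GRCm38, as the microglial annotation gives them, and each value sums reads over a gene's exons. *Tlr1* (chr5:64924679-64933561) and *Tlr6* (chr5:64952031-64960047) are neighbours on the minus strand, as are *Tlr8* (chrX:167242696-167264286) and *Tlr7* (chrX:167304929-167330558). *Tlr2* (chr3:83836272-83841767), *Tlr3* (chr8:45395665-45410619) and *Cd14* (chr18:36725074-36726736) are on the minus strand as well. *Tlr4* (chr4:66827584-66930284), *Tlr9* (chr9:106222598-106226883) and *Tlr13* (chrX:106143229-106160493) are on the plus strand. The neighbours *Tlr8* and *Tlr7* differed, *Tlr8* being called lower with both stimuli and *Tlr7* with neither.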

How the data were processed

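Enriched mRNA of 24 microglial and 12 astrocyte libraries was sequenced. The authors processed the reads in OmicSoft Array Studio (10.1.1.3) and deposited log2 values of FPKM with 1 added, scaled to a common upper quartile. The aligner and gene model are not given in the sources used here. The deposited annotation gives exon lengths in bases, an other kind of value that served only for the depth estimate. For every microglial gene, replicates 1 to 3 have the treatment mean of replicate 4 within 6.67e-05, a step the methods do not describe. Microglial libraries were made by Genewiz and astrocyte libraries by BGI with a strand-specific protocol, and no test crossed the tables. The astrocyte labels spell the vehicle DSMO, read here as DMSO.

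Genes with a log2 value of at least 1 in at least 4 (microglia) or 3 (astrocytes) libraries were tested with limma 3.58.1 in R 4.3.3 (lmFit and eBayes with trend, 2-sided) on the compared groups, blocked by replicate number, as the authors had used a paired test. The interaction used the 4 stimulated microglial groups. Nothing in the labels says that equal numbers share a culture, and deviations of same-numbered libraries correlated at −0.458 to 0.257 in microglia, where the adjustment forces a negative mean, and −0.144 to 0.411 in astrocytes. The design text calls the microglial samples biological replicates and the astrocyte samples replicates. The methods count N as biological replicates in general and describe cells from separate litters, but no label ties a library to a litter. With the block, p-values measure the spread of differences between same-numbered libraries. In microglia this is the spread left after replicate means were made equal. Depth was read from steps between low values of genes with 600 to 6000 exon bases. Only 50.8% to 65.5% of these lay within 0.1 of a whole multiple, so no count test was made. Changes of low genes are understated on this scale.

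The genes, the pathway list and the markers were chosen with earlier results of these data known. Named are the 10 genes, called pathway genes with at least the largest change of a class, markers, and the 5 genes most like those with the largest rise and fall, of which 1 is not reported here. The fits were tested on simulated data. Alternatives changed the value added before the log, the filter, the scaling, the variance model, the thresholds, the samples fitted, the block, or left out each replicate. Replicate 4 of microglia alone was added after seeing the data.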

Additional observations from a re-analysis of the deposited data

Results flagged for a closer look

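In 5 of 60 microglial groups of 4 libraries (8.33%, where chance gives about 5%), 1 library stood apart by Dixon's ratio of its gap to the group's range. *Tlr2* under Nec-1s had a ratio of 0.961, with replicate 3 at 7.11 on the log2 scale and the others at 6.78 to 6.80. *Cd14* in DMSO had a ratio of 0.945, with replicate 1 at 9.77 and the others at 9.99 to 10.00. *Tlr7* in DMSO had a ratio of 0.91, with replicate 3 at 6.58 and the others at 6.40 to 6.42. *Tlr4* after T/5z/N had a ratio of 0.847, with replicate 1 at 3.78 and the others at 3.56 to 3.60. *Tlr6* in DMSO had a ratio of 0.836, with replicate 4 at 2.44 and the others at 2.80 to 2.87.

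The effect of Nec-1s after T/5z differed from its effect after T/S/Z for 3 genes in the limma test of the interaction. The differences on the log2 scale were −0.76 for *Tlr1*, −0.98 for *Tlr6* and −0.62 for *Tlr3*. The 2 effects had opposite signs for *Tlr6* (−0.43 and 0.55) and *Tlr3* (−0.21 and 0.41), none of which was called by itself.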

How the results depend on the processing

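Of 51 called changes, 44 kept their call in every refit at the 1.5-fold threshold and 0 turned their sign. With a fold over 2, 19 of the 51 were lost. Dropping the replicate block gave the same number of calls in each comparison. In microglia these were, for example, 8 (T/5z) and 6 (T/S/Z) against DMSO and 3 in the interaction. Replicate means had already been made equal there, so the block had little to remove and these counts cannot test it. With a fold over 2, the count moved by over 1.5 times to 1 for T/5z/N against T/5z (1.73% of all genes), 4 for T/S/Z/N against DMSO (5.66%), 2 for T/S/Z against T/5z (3.79%), and 0 for T/S/Z/N against T/5z/N (0.684%), astrocyte T/S/Z/N against T/S/Z (0.773%), and the interaction (2.16%). It moved less for T/5z against DMSO (7), T/5z/N against DMSO (5) and astrocyte T/S/Z against DMSO (2). Quantile normalization gave 3 for T/S/Z against T/5z, *Cd14* (0.58) and *Tlr13* (0.55) being lost, and 0 for T/S/Z/N against T/5z/N. *Tlr3* lost its interaction call with 5 added before the log (−0.38), with quantile normalization (−0.54) and without replicate 3 (−0.49), and its call between the stimuli with 5 added (−0.45). With 5 added, *Tlr4* in T/5z/N against T/5z came to 0.49 and astrocyte *Tlr13* to −0.21, the latter also being lost with quantile normalization (−0.54). Calls were gained without 1 replicate for *Tlr6* (0.64, without replicate 2) and *Cd14* (−0.63, without replicate 1) in T/S/Z/N against T/S/Z, for *Tlr13* in T/S/Z/N against DMSO (−0.59 and −0.66, without replicates 1 and 2), and for astrocyte *Tlr3* with T/S/Z (0.61, without replicate 2). With 0.1 added before the log, calls were gained for *Tlr6* in T/S/Z/N against T/S/Z (0.60) and for *Tlr13* in T/S/Z/N against DMSO, in microglia (−0.59) and astrocytes (−0.83), and quantile normalization also gained the microglial one (−0.73).

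Signs turned only for uncalled changes. For Nec-1s against DMSO in microglia, leaving out 1 replicate gave −0.0302 to 0.0773 for *Tlr1*, −0.001 to 0.0246 for *Tlr2*, −0.0537 to 0.0532 for *Tlr3*, −0.1148 to 0.0154 for *Tlr7*, −0.1093 to 0.0183 for *Tlr8* and −0.0153 to 0.0513 for *Cd14*, and quantile normalization gave −0.0045 for *Tlr2* and −0.0138 for *Cd14*. Centring on library medians gave 0.0395 for *Tlr7* under T/5z, −0.0166 for *Tlr13* with Nec-1s against T/5z alone, and −0.0181 for *Tlr1* with Nec-1s against T/S/Z alone, the last running from −0.0293 to 0.1555 without 1 replicate. *Tlr3* ran from −0.0061 to 0.0328 in T/S/Z/N against DMSO and up to 0.0616 in astrocyte T/S/Z/N against T/S/Z. For the interaction, *Tlr2* came to −0.0614 with quantile normalization and −0.0045 to 0.1486 without 1 replicate, and *Tlr9* to −0.0322 with 0.1 added and −0.0307 to 0.0832 without 1 replicate. The cause of these shifts was not tested. In replicate 4 alone, 0 called changes turned their sign and 20 of 90 changes moved by more than the spread between replicates. Astrocyte *Tlr13*, a low gene, rested on as few as 25 counted units in a library.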
